A study of Sus scrofa with 12 samples.

Results

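Solute carrier genes were followed across coronary artery segments of Yorkshire farm pigs that carried one of the following stents: bare metal (BMS), eluting sirolimus (SES) or eluting zotarolimus (ZES). A gene was taken when an array probe set had a symbol starting with SLC and a digit as its only symbol, with the glucose carriers SLC2A1 and SLC2A3 left out. The brightest of a gene's probe sets over the 12 arrays stood for it. The rule found 118 genes among the 6765 genes that the array names by a single symbol. Of these, 115 belong to solute carrier families, among them SLC3A1 and SLC3A2, which are heavy chains of amino acid exchangers. SLC9A3R1, SLC9A3R2 and SLC2A4RG are named after a carrier they bind or regulate. Tissue was dissected by hand from the stents 28 days after angioplasty and implantation. Each stent type was represented by 4 segments from 2 pigs, so the 12 arrays came from 6 animals. Segments are named by stent type and a number, where 1 and 2 share an animal, as do 3 and 4; they came from the right coronary and left anterior descending arteries, except that SES 1 was from the left circumflex artery. All animals had a stent, and no unstented artery was analysed here, so BMS is the control for the drug-eluting stents and not for stenting. A drug-eluting stent may differ from BMS in more than the drug, and these cannot be told apart here. With 2 pigs a group, p-values measure mainly the spread between segments.

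Solute carriers are membrane proteins that move small molecules either down their own gradient or coupled to gradients of sodium, protons or other solutes. They are numbered in families by sequence, and each family serves a kind of cargo: amino acids, sugars, lactate, metals, nucleotide sugars of the Golgi, or the metabolites that mitochondria exchange with the cytosol. Sirolimus and its analog zotarolimus bind the immunophilin FKBP12 and inhibit mTORC1, a kinase complex that senses amino acids and in turn controls how much of several amino acid carriers a cell makes. In the vessel wall, carriers supply smooth muscle cells and infiltrating leukocytes alike. In bulk tissue a lower signal can come from fewer cells of a type or from less RNA per cell, and these cannot be told apart.

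Values are log2 signals of the MAS5 algorithm, which scales each array to a common mean. A signal counted as above background when it exceeded the 95th percentile of 59 control probe sets on its array. Its group mean was 5.51 ± 0.31 for BMS, 4.72 ± 0.54 for SES and 4.72 ± 0.41 for ZES (mean ± SD, n = 4 arrays each). Spike-in controls, added at hybridisation, averaged 16.30, 15.09 and 15.30, and the GAPDH control's 3' minus 5' signal averaged 4.16, 2.71 and 3.66. For both, the highest SES array was below the lowest BMS array. For the GAPDH control, the SES arrays (2.33 to 3.02) also lay below every ZES array (3.44 to 3.91). The part of these controls in the differences below was not tested beyond using each as a covariate. The smooth muscle markers of the labelled tissue were present, since all 9 with a probe set were above background on all 12 arrays.

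Of the 118 genes, 83 were tested after the 30% of probe sets with the lowest mean were removed, and 45 of these were above background on all 12 arrays. The number above background on a single array was 70 to 85 of 118 with BMS, 76 to 89 with SES and 84 to 93 with ZES. The 35 genes removed were above background on 1 to 6 arrays. They are SLC1A3, SLC1A6, SLC2A2, SLC2A12, SLC4A4, SLC5A1, SLC5A5, SLC6A4, SLC6A14, SLC7A4, SLC7A9, SLC8A1, SLC9A3, SLC9A4, SLC10A1, SLC12A4, SLC15A1, SLC17A1, SLC22A2, SLC22A6, SLC22A8, SLC23A1, SLC23A2, SLC25A48, SLC25A51, SLC26A3, SLC28A3, SLC29A1, SLC34A2, SLC39A2, SLC44A4, SLC45A2, SLC45A3, SLC46A3 and SLC52A2. Genes were classed by family number, so a class named for its main cargo also holds other carriers, such as SLC6A8 (creatine) and SLC6A4 (serotonin) in the amino acid class and SLC5A6 (biotin and pantothenate) and SLC5A5 (iodide) in the sugar class. Of 21 genes of the SLC25 family, classed as mitochondrial carriers by family number alone, 19 were tested and 17 were above background on every array. All 12 genes of the SLC35 and SLC37 families were tested. Of 13 genes in the sugar and polyol class 7 were tested, and of 19 in the amino acid class 13 were tested. SLC8A1, the sodium-calcium exchanger of heart and smooth muscle, was among the removed genes, with 6.77, 5.66, 5.11 and 4.65 with BMS, 1.34, 4.92, 2.92 and 2.32 with SES, and 0, 4.69, 4.31 and 5.93 with ZES. It was above background on 2 BMS arrays, 1 SES array and 1 ZES array, so no difference can be read from it. SLC29A1, an equilibrative nucleoside carrier, was above background on 0, 1 and 1 arrays.

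The sirolimus-eluting stent was compared with the bare metal stent through SES and BMS. A single solute carrier gene passed, SLC38A1, which takes glutamine and other neutral amino acids into cells with sodium. It read 7.21, 5.40, 5.25 and 5.24 on the BMS arrays, 9.09, 9.65, 9.45 and 8.62 on the SES arrays, and 9.29, 4.99, 8.05 and 7.42 on the ZES arrays. Every SES array lay above every BMS array, while ZES spanned both ranges, with ZES 2 below all 4 BMS arrays. SLC38A1 rose with SES by 3.43 ± 0.73 (log2, estimate ± SE, limma adjusted p = 0.0388), a 10.8-fold difference. Only 2 of the 4 BMS arrays were above background, so the fold is uncertain; with 64 added to the linear signals the log2 difference was 2.41. The means per pig were 6.30 and 5.24 with BMS against 9.37 and 9.04 with SES. A further probe set of SLC38A1 differed by 3.55 (adjusted p = 0.118), and one more, at means of 4.01, 3.79 and 4.27 with BMS, SES and ZES, was below the filter. The call ended without any single one of BMS 2, BMS 3, BMS 4, SES 1, SES 2 or SES 3, at adjusted p = 0.0799, 0.0819, 0.0610, 0.100, 0.113 and 0.176, while the difference without 1 array stayed between 3.24 and 3.91. It also ended without the pig of BMS 3 and BMS 4 (adjusted p = 0.0708), without either SES pig (0.395 and 0.105) and with the artery as a term (3.22, adjusted p = 0.102). With the spike-in level or the GAPDH difference as a covariate, the log2 difference of SLC38A1 was 2.92 (adjusted p = 0.793) or 4.90 (adjusted p = 0.715). The gene passed under 20 of 34 alternatives to the main fit, including means per pig.

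Markers of T and NK cells moved in the same direction. Of 14 listed markers 9 had a probe set, and their mean signal ran from 3.94 to 5.26 over the BMS arrays, from 5.78 to 6.80 over SES and from 4.77 to 6.07 over ZES. Of the 6 markers tested, 5 had a positive difference with SES and 2 passed, beside 0.494% of all probe sets that passed as higher. These were CD3E at 4.90 ± 0.83 (adjusted p = 0.0172) and SH2D1A at 3.72 ± 0.75 (adjusted p = 0.0290). Neither passed with the spike-in level or the GAPDH difference as a covariate or without SES 3, where no probe set passed. CD3E was above background on none of the 4 BMS arrays, and CD3D was listed at 0 on 1 SES array. Neutrophil markers (5 of 8 with a probe set) averaged 5.10 to 7.40 over the BMS arrays and 7.21 to 10.61 over SES, and smooth muscle markers (9 of 12) 13.29 to 14.27 and 10.65 to 13.41, with all 9 lower with SES and none past the threshold. The part of these cell markers in the SLC38A1 difference and in the other SES differences was not tested.

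**Figure D1:**
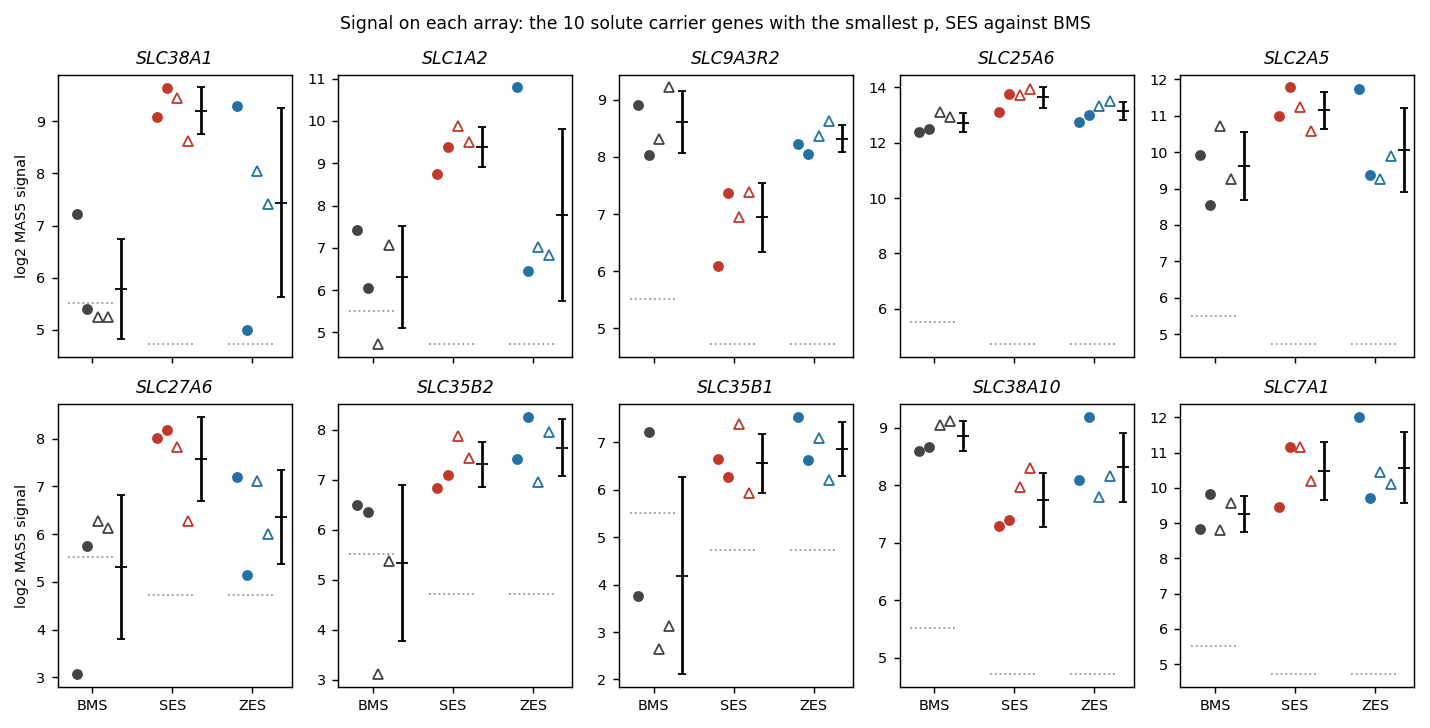
Log2 signal on each array for the 10 solute carrier genes with the smallest p for SES against BMS; filled circles are segments 1 and 2 (one pig), open triangles segments 3 and 4 (the other pig), black bars the mean ± SD, and dotted lines the group's mean background level. SLC38A1 lies at 8.62 to 9.65 on the SES arrays and at 5.24 to 7.21 on the BMS arrays.

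In all, 1 of the 83 tested genes passed for SES against BMS, or 1.20%, beside 0.679% of all 16799 probe sets tested (0.494% higher and 0.185% lower). At an unadjusted p under 0.05 there were 15 genes, 11 higher and 4 lower with SES, or 18.1% beside 14.3% of all probe sets. The groups did not overlap for 6 genes, or 7.23% beside 8.74%: 4 higher with SES, beside 4.23% of all probe sets, and 2 lower, beside 4.51%. These shares lie close to the background and are no result about solute carriers as a group.

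Other amino acid carriers did not pass. SLC1A2, a high-affinity glutamate carrier best known from glia, read 7.41, 6.06, 4.73 and 7.08 with BMS and 8.75, 9.38, 9.89 and 9.49 with SES. Those groups did not overlap, and the difference was 3.06 ± 0.79 (adjusted p = 0.0809). With ZES it read 10.79 on ZES 1 and 6.46 to 7.02 on the others. Leaving out 1 array at a time, the SES difference of SLC1A2 gave adjusted p from 0.0261 (without ZES 1) to 0.266 (without SES 3), and it passed under 4 of 34 alternatives. SLC7A1, the main carrier of arginine and lysine into most cells, averaged 9.26 ± 0.51 with BMS and 10.49 ± 0.82 with SES, a difference of 1.23 ± 0.48 (adjusted p = 0.234). SLC1A5, an exchanger of glutamine and other neutral amino acids, differed by 0.79 ± 0.37 (adjusted p = 0.342). SLC3A2, the heavy chain that brings several amino acid exchangers to the surface, was above background on 1 BMS and 3 SES arrays and differed by 1.60 ± 1.27. SLC38A10, of the same family as SLC38A1, ran the other way. Its 4 BMS arrays read 8.60 to 9.12 and its 4 SES arrays 7.30 to 8.29, without overlap, at -1.12 ± 0.41 (adjusted p = 0.209). Over the 13 tested genes of the amino acid class, 8 had a positive and 5 a negative difference, with a median of 0.15.

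Genes classed as mitochondrial carriers were spread around 0, with 10 positive and 9 negative differences and a median of 0.21. The ADP/ATP carriers, which exchange ATP made in mitochondria for cytosolic ADP, differed among themselves. SLC25A6 read 12.39, 12.48, 13.09 and 12.93 with BMS and 13.10, 13.75, 13.73 and 13.94 with SES. All 4 SES arrays were higher than any BMS array, the nearest pair narrowly, at 0.91 ± 0.27 (adjusted p = 0.123). SLC25A5 differed by 0.69 ± 0.40 (adjusted p = 0.448). SLC25A4, the form typical of heart and skeletal muscle, read 9.52, 9.08, 9.47 and 10.72 with SES and 10.23 to 11.06 with BMS, at -0.81 ± 0.39 (adjusted p = 0.353). SES 4, the SES array on which SLC25A4 was highest, also had the highest mean of cardiomyocyte markers, 7.39. The other SES arrays had 3.13 to 5.06 and the BMS arrays 4.30 to 6.79. SES 4 stood apart in other ways too. It was the highest SES array for smooth muscle markers (13.41 against 10.65 to 11.53) and spike-in level (15.60 against 14.62 to 15.24). It was the lowest for T and NK cell and neutrophil markers. The part of any of these in the SLC25A4 values was not tested. Of 14 listed cardiomyocyte markers 12 had a probe set, and among these TNNI3 was listed at 0 on 1 SES array and TNNT2 on 1 ZES array. SLC25A3, which brings phosphate into mitochondria, had the smallest spread within groups of the tested members (SD 0.34) and differed by 0.30 ± 0.27.

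Among the remaining classes, SLC9A3R2, a scaffold that anchors the sodium-proton exchanger and other membrane proteins, read 8.91, 8.04, 8.31 and 9.22 with BMS and 6.09, 7.37, 6.95 and 7.38 with SES. These did not overlap, and the difference was -1.68 ± 0.44 (adjusted p = 0.0821). Its relative SLC9A3R1 differed by 0.72 ± 0.37 (adjusted p = 0.385). SLC2A5, the fructose carrier, averaged 9.62 ± 0.93 with BMS and 11.15 ± 0.51 with SES, at 1.53 ± 0.52 (adjusted p = 0.171). The insulin-regulated glucose carrier SLC2A4 was above background on 2 BMS, 2 SES and 0 ZES arrays. SLC27A6, a long-chain fatty acid transport protein, differed by 2.26 ± 0.77 (adjusted p = 0.173), but its further tested probe set gave -0.34. SLC30A3, a zinc carrier of synaptic vesicles, differed by -1.75 ± 0.68 (adjusted p = 0.237). SLC16A3, which exports lactate, differed by 1.66 ± 0.81 (adjusted p = 0.361), with 1 BMS array above background. SLC11A1, the metal carrier of phagosomes in macrophages, differed by 0.05 ± 1.33, and its wide spread (1.48 to 7.75 with BMS and 2.07 to 8.11 with SES) leaves an interval from -2.76 to 2.85.

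The zotarolimus-eluting stent was compared with the bare metal stent in the same way. None of the 83 tested genes passed in limma, and neither did any of the 16799 probe sets (0%); at an unadjusted p under 0.05 there were 8 genes, all higher with ZES, or 9.64% beside 8.99% of all probe sets. The lowest adjusted p was 0.405. The groups did not overlap for 2 genes, SLC1A5 and SLC35B2, or 2.41% beside 3.82%; both were higher with ZES, beside 1.58% of all probe sets higher and 2.23% lower. SLC1A5 read 8.90, 7.78, 8.58 and 9.08 with BMS and 10.50, 9.83, 9.83 and 9.32 with ZES. The groups did not overlap, and the difference was 1.29 ± 0.37. SLC7A1 averaged 10.58 ± 1.01 with ZES, 1.32 ± 0.48 above BMS (adjusted p = 0.440), where ZES 1 read 12.01 and the other ZES arrays 9.72 to 10.47. SLC36A2, a proton-coupled carrier of small amino acids, had the most negative difference, -2.40 ± 1.14 (adjusted p = 0.557), with ZES 2 at 0.73. SLC3A2 differed by 2.20 ± 1.27 and was above background on 3 ZES arrays.

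In the SLC35 family no gene passed, and differences from BMS had both signs. SLC35B2, which brings the sulfate donor PAPS into the Golgi, read 6.49, 6.35, 3.11 and 5.37 with BMS, 6.84, 7.10, 7.88 and 7.43 with SES, and 7.41, 8.26, 6.96 and 7.95 with ZES. Every array of either drug-eluting stent was above every BMS array. The differences were 1.98 ± 0.69 for SES (adjusted p = 0.180) and 2.31 ± 0.69 for ZES (adjusted p = 0.405), and 2 BMS arrays were above background. SLC35B1, an exchanger of ATP and ADP across the membrane of the endoplasmic reticulum, read 3.76, 7.23, 2.65 and 3.12 with BMS and 6.20 to 7.53 with ZES. BMS 2 overlapped the ZES range and was the only BMS array above background. The ZES difference of SLC35B1 was 2.67 ± 0.87 (adjusted p = 0.410) and the SES difference 2.36 ± 0.87 (adjusted p = 0.207). SLC35C1, the carrier of GDP-fucose into the Golgi, differed by 2.08 ± 0.69 with ZES (adjusted p = 0.424), with BMS 3 at 3.81 and the other BMS arrays at 6.69 to 7.76. SLC35B3, which also carries PAPS, differed by -1.18 ± 0.55 with SES and by 0.01 ± 0.55 with ZES. SLC33A1, which takes acetyl-CoA into the endoplasmic reticulum, differed by 1.26 ± 0.58 (adjusted p = 0.541), while its further tested probe set gave -0.85. The copper carrier SLC31A2 differed by 1.14 ± 0.50 (adjusted p = 0.523).

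SES and ZES share the BMS arrays as their control, so the SES and ZES differences are given side by side and not as separate evidence. Positive differences were 47 of 83 for SES, or 56.6% beside 48.8% of all probe sets, and 58 of 83 for ZES, or 69.9% beside 49.1%. These counts rest on the brightest probe set of each gene. For ZES, further tested probe sets matched its sign in 6 of 15 cases (40%), beside 57.3% of such pairs over all named genes. These 15 pairs came from 13 of the 83 genes and compared signs only. They cannot decide whether the excess of positive ZES differences holds. The median difference of the tested members was 0.15 for SES and 0.32 for ZES, beside -0.02 and -0.01 for all probe sets. Over all 118 genes with no filter, positive differences of means were 59 (50%) for SES and 71 (60.2%) for ZES, beside 44.4% and 45.1% of 23999 probe sets. For ZES, the SLC35 and SLC37 families, which hold carriers of nucleotide sugars, PAPS, ATP and sugar phosphates, had 10 positive and 2 negative differences (median 0.47), and metal ion carriers 9 and 3 (median 0.34). The corresponding SES counts were 9 and 3 (median 0.50) and 7 and 5 (median 0.10). Array means of cell markers were also set beside these counts. Endothelial markers (10 of 11 with a probe set, KDR listed at 0 on 1 ZES array) averaged 6.09 to 6.52 over the BMS arrays and 7.08 to 7.68 over ZES, without overlap, with 7 of 9 tested markers positive. Neutrophil markers were positive for 4 of 4 tested, at array means of 5.48 to 10.32 over ZES, and T and NK cell markers for 4 of 6. None of these markers passed for ZES, and their part in the differences of the solute carriers was not tested.

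**Figure D2:**
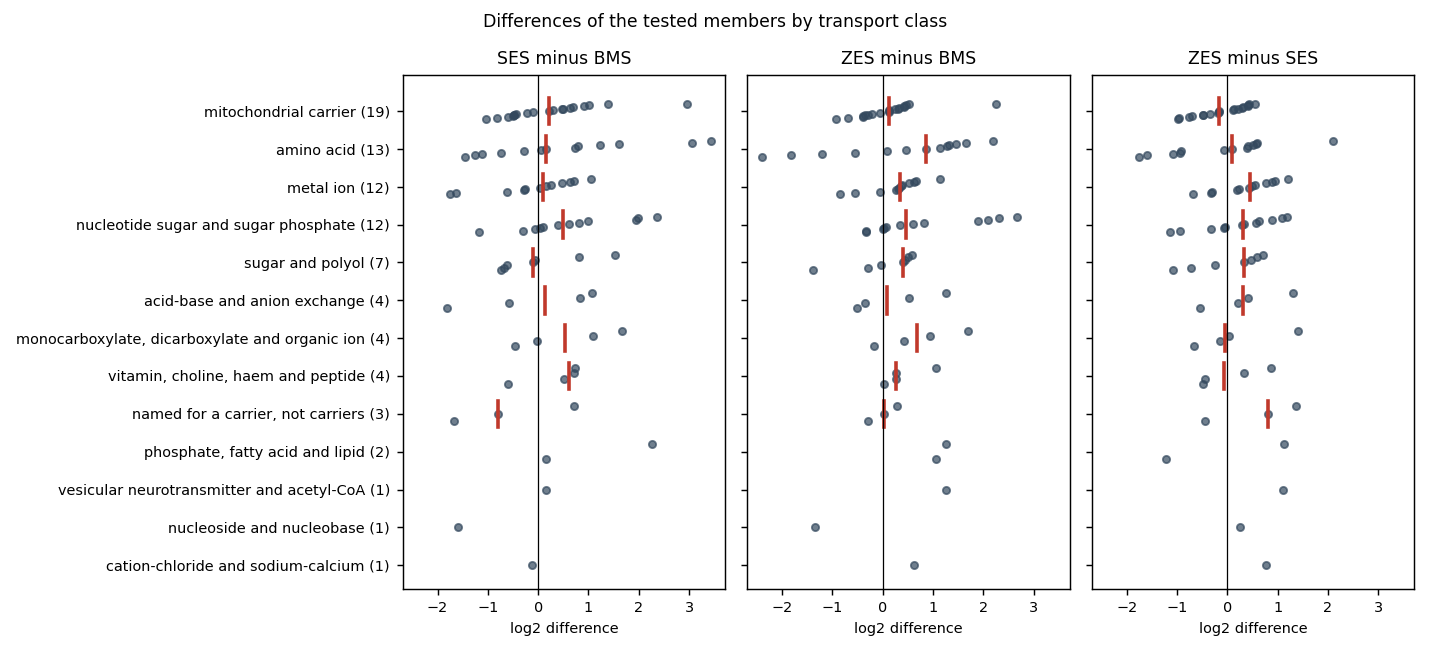
Log2 differences of the 83 tested solute carrier genes by transport class in the 3 comparisons; each point is a gene, classes follow family numbers, the red line is the median of classes with 3 or more tested genes, and the number tested is in parentheses. In the ZES against BMS panel 58 of 83 points lie right of 0, each read from the gene's brightest probe set.

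Zotarolimus is sirolimus with a hydroxyl replaced by a tetrazole ring, and the stents that elute them were compared directly at 28 days. No source used here gives the drug doses, and the stents may differ in more than the drug. In limma no solute carrier gene passed, beside 0.0714% of all probe sets (0.0298% higher and 0.0417% lower with ZES), and 5 had an unadjusted p under 0.05, or 6.02% beside 10%. SLC9A3R2 had the smallest p. It read 8.23, 8.06, 8.37 and 8.62 with ZES, all above the highest SES array at 7.38, and the difference was 1.38 ± 0.44 (95% interval 0.46 to 2.30, adjusted p = 0.256). SLC35B3, a further PAPS carrier, was also higher on every ZES array (7.15 to 8.22) than on any SES array (5.15 to 6.90), at 1.19 ± 0.55 (adjusted p = 0.494). These were 2 genes without overlap, or 2.41% beside 6% of all probe sets (2.94% higher and 3.06% lower with ZES). A positive difference was found for 49 of 83 genes, or 59% beside 48.7%.

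For SLC38A1, ZES minus SES was -1.76 ± 0.73 (95% interval -3.29 to -0.23, adjusted p = 0.414), so the size of the SES response relative to ZES was not settled over all probe sets. For SLC1A2 it was -1.60 ± 0.79 (interval -3.27 to 0.06) and for SLC2A5 -1.09 ± 0.52 (interval -2.18 to 0.01). SLC25A5 read 11.58, 11.79, 11.10 and 10.35 with SES and 9.87, 9.50, 10.99 and 10.50 with ZES, at -0.99 ± 0.40 (adjusted p = 0.408), and these overlapped. SLC25A24, a calcium-regulated carrier of ATP and phosphate, differed by -0.76 ± 0.39, but its further probe set by 1.16. SLC30A5, a zinc carrier of the secretory pathway, differed by 0.89 ± 0.39 (adjusted p = 0.449), with ZES at 9.38 to 10.74 and SES at 8.87 to 9.75. SLC44A2, a choline carrier-like protein, differed by 0.87 ± 0.44 and SLC3A1, the heavy chain of the cystine exchanger, by 2.11 ± 1.05. SLC3A1 was above background on 2 SES and 3 ZES arrays. For SLC7A1 the interval of ZES minus SES was -0.92 to 1.09, and for SLC35B2 it was -1.12 to 1.78. For 4 of the 83 genes the whole interval lay within 1 log2 unit of 0, so at this precision a difference of up to 2-fold could be bounded for few of them. An F test over the 3 stent types called 0 of the 83 genes, beside 0.345% of all probe sets. At an unadjusted p under 0.05 there were 12 of the 83, beside 13.4% of all probe sets. SLC38A1 had the smallest adjusted p of the F test, 0.0872.

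**Figure D3:**
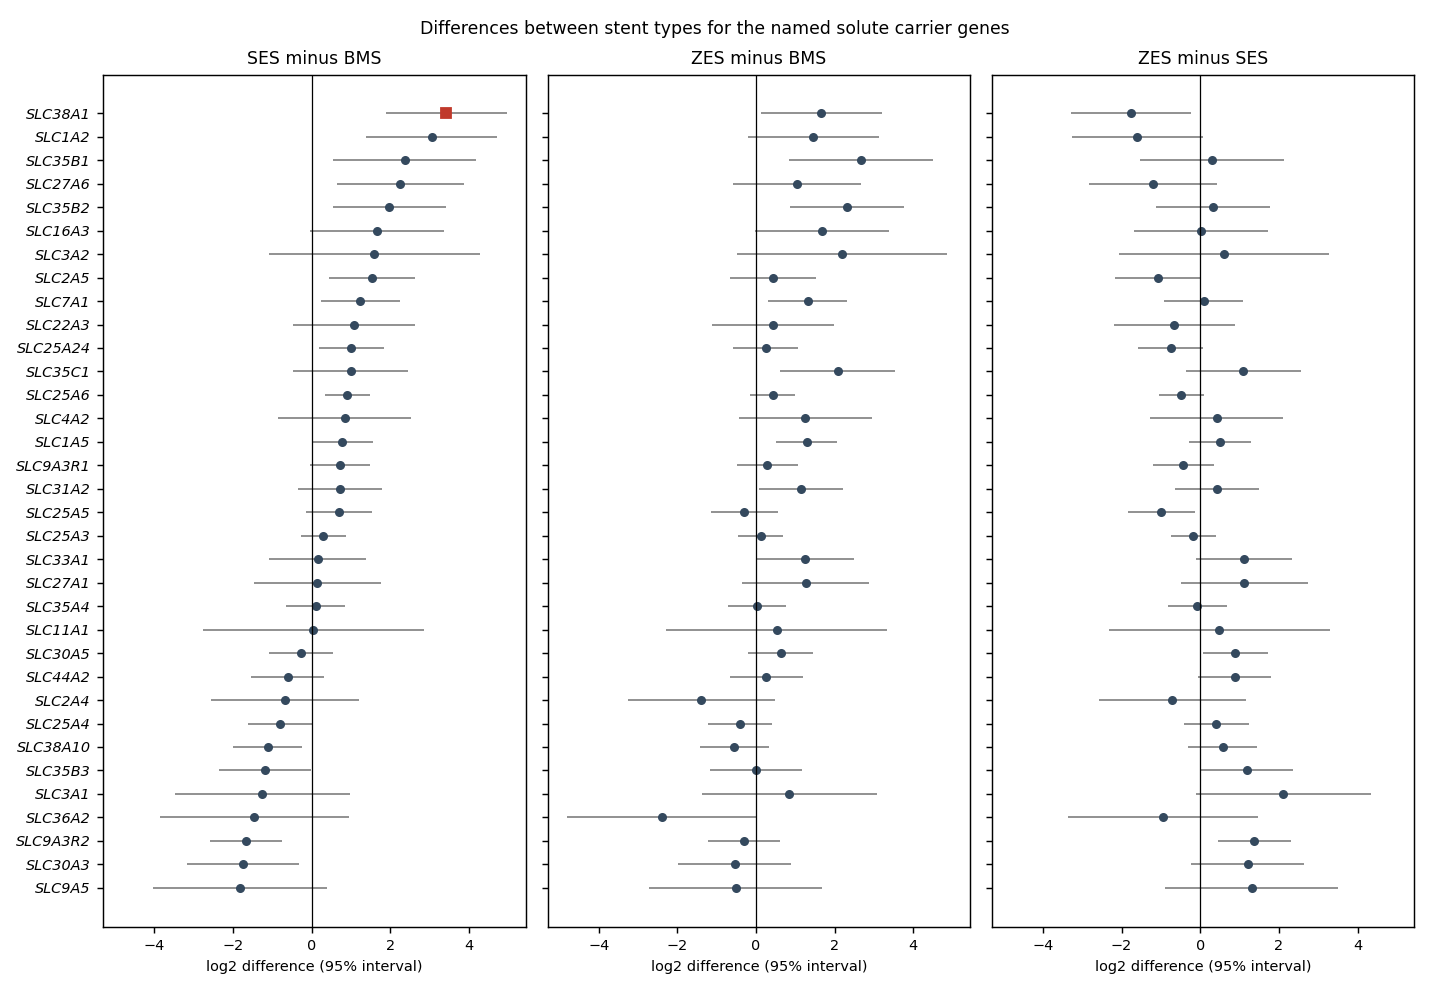
Log2 differences with 95% intervals for the 34 named solute carrier genes that were tested, ordered by the SES minus BMS difference; the red square marks the gene that passed at an adjusted p under 0.05. SLC38A1 is the only such gene, at 3.43, and most intervals span 0.

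SLC25A3 ranged between -0.18 and 0.30 over the 3 comparisons and SLC35A4 between -0.07 and 0.10. The differences of SLC4A2, SLC9A5, SLC22A3 and SLC27A1 were wider, and none passed. SLC4A2, an anion exchanger, differed by 0.84 ± 0.80 with SES and 1.26 ± 0.80 with ZES, with BMS 1 at 2.84 and the other arrays at 6.32 to 7.87. SLC9A5, a sodium-proton exchanger, differed by -1.82 ± 1.04 with SES, and SLC22A3, an organic cation carrier, by 1.08 ± 0.73, where BMS alone ran from 5.96 to 10.72. SLC27A1, a fatty acid transport protein, differed by 0.15 ± 0.76 with SES and 1.27 ± 0.76 with ZES.

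Probe sets of the same gene often went opposite ways. For 13 of the 83 genes, 15 further probe sets passed the filter. Their sign matched that of the brightest probe set in 4 of 15 cases for SES against BMS (26.7%), 6 of 15 for ZES against BMS (40%) and 10 of 15 for ZES against SES (66.7%). Over all named genes with further probe sets, 1917 such pairs matched in 62.5%, 57.3% and 61.3%. SLC38A1 matched, at 3.43 and 3.55 for SES. SLC37A4, the glucose-6-phosphate carrier, gave 1.94 and -1.0, SLC46A1, a proton-coupled folate carrier, gave 0.72 and -2.16, and SLC35F5 gave 0.61 against -1.35 and -0.72. SLC37A4, SLC46A1 and SLC35F5 were chosen after their values were seen. None of these further differences passed.

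**Figure D4:**
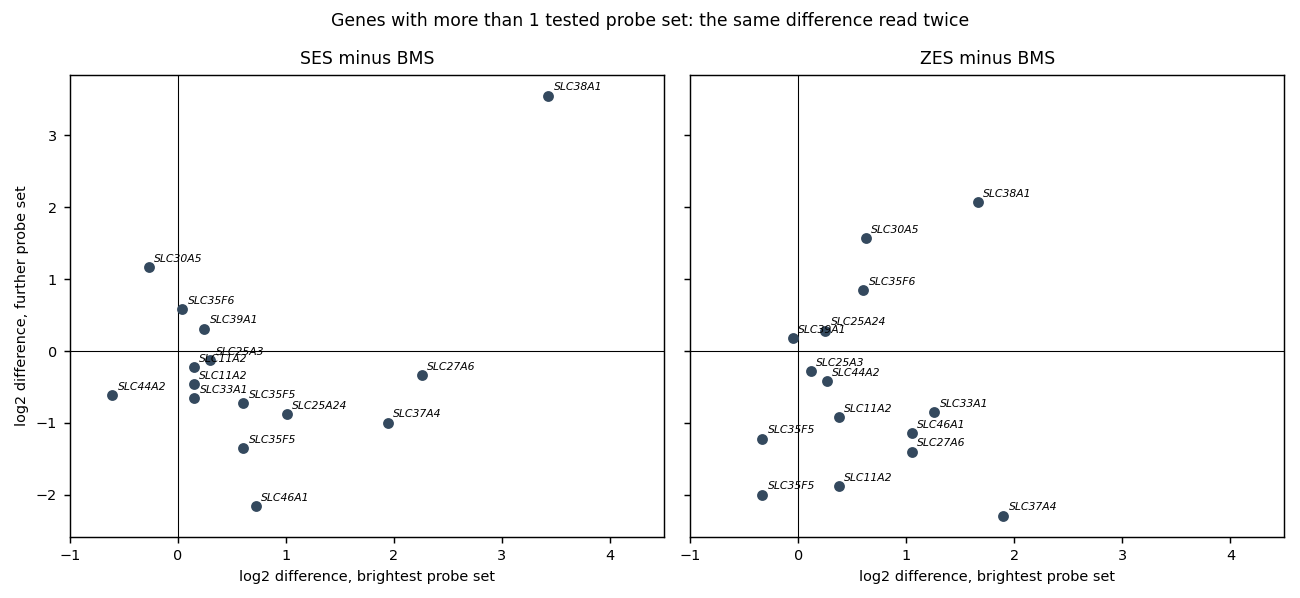
Log2 difference of each further probe set against that of the gene's brightest probe set, for 15 pairs from 13 solute carrier genes. In the SES against BMS panel 4 points lie in the quadrants of equal sign, and SLC38A1 stands at 3.43 and 3.55.

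Other transport proteins were read from the same fit. Of 62 listed pumps, ABC transporters, water channels and other transport proteins, 26 had a probe set and 21 were tested. For SES 9 had a positive and 12 a negative difference (median -0.11), and 1 of the 21 passed, beside 0.679% of all probe sets. This was AQP1, a water channel, which was lower with SES by 2.63 on the log2 scale (limma adjusted p = 0.0366). The AQP1 call ended with the spike-in level or the GAPDH difference as a covariate and without SES 3, where no probe set passed. AQP1 averaged 13.12, 10.49 and 13.14 with BMS, SES and ZES, and ZES minus SES was 2.65 (limma adjusted p = 0.0685). With SES the endothelial list had 7 positive and 2 negative differences (median 0.39) and the erythroid list 2 and 1 (median 1.19). The smooth muscle list had 0 and 9 (median -2.09), and no gene of these lists passed. Their part in the AQP1 difference was not tested. No listed gene passed for ZES against BMS or against SES. The amino acid response list, made of genes of mTORC1 signalling and targets of the transcription factor ATF4, had 24 of 37 tested, and none passed in any comparison. For SES 14 were positive and 10 negative (median 0.11). VLDLR, a lipoprotein receptor, had a SES difference of -1.12 ± 0.31 (adjusted p = 0.102), and PSAT1, of serine synthesis, one of -1.40 ± 0.65 (adjusted p = 0.334).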

How the data were processed

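RNA from 12 stented porcine coronary segments was amplified, labelled with biotin and hybridised to Affymetrix porcine arrays, per the labels' protocols. Per the submitters' processing notes, the tools were MAS5 and Affymetrix Expression Console 5.0, and the deposited signals are on a log2 scale, as their range shows. No source used here gives the scaling target or detection calls. The values were used without further normalisation or pseudocount. Probe set names came from the platform annotation, and 10069 probe sets carried a single symbol.

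The 124 control probe sets and the 30% of the others with the lowest mean were left out, which left 16799. limma 3.58.1 in R 4.3.3 fitted stent type over all 12 arrays, with the pig as a random block (consensus correlation -0.03) and a variance trend. Two-sided p-values were adjusted by Benjamini-Hochberg over 16799 probe sets, with a threshold of 0.05. The number of arrays limits the precision. On data simulated for SES against BMS over 16799 probe sets, 12%, 48%, 60% and 76% of probe sets changed by 1, 2, 3 and 4 log2 units were recovered, with 7 false calls. The simulated arrays were independent, with no pig effect and no gap in control levels between groups. These figures therefore do not give the power or the error rate of the real design.

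Genes were named when they were among the 10 with the smallest p in a comparison or in the F test, the brightest or smallest-p gene of a transport class with 3 or more tested genes, or on a fixed panel. The members and lists were chosen with earlier results of these data known.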

Additional observations from a re-analysis of the deposited data

Results flagged for a closer look

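In groups of 4 arrays, 1 array stood far from the other 3 in 8 of 108 groups tested (36 genes), where chance flags about 1 in 20. SLC38A1 read 7.21 on BMS 1 and 5.24 to 5.40 on the other BMS arrays. SLC1A2 read 10.79 on ZES 1 and 6.46 to 7.02 on the other ZES arrays. SLC27A6 read 3.07 on BMS 1 against 5.76 to 6.28, and SLC30A3 read 5.19 on BMS 4 against 7.09 to 7.39. SLC9A3R1 read 9.23 on SES 4 against 10.09 to 10.22, and SLC44A2 read 9.0 on SES 4 against 7.74 to 7.89. SLC35B3 read 5.15 on SES 3 against 6.67 to 6.90. SLC36A2 read 0.73 on ZES 2 against 4.48 to 5.22.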

How the results depend on the processing

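The count of solute carrier genes passing for SES against BMS was 1, and it moved under several alternatives; the causes were not tested. It was 0 without a variance trend, with the spike-in level or the GAPDH difference as a covariate, at an adjusted p under 0.01, without either SES pig, and with the artery as a term, an alternative chosen after seeing the data in which the left circumflex segment, SES 1, has a level of its own. Without the pig of BMS 3 and BMS 4 it stayed at 1, but the gene was SLC25A24 (adjusted p = 0.0487) and SLC38A1 did not pass (adjusted p = 0.0708). In the main fit SLC25A24 differed by 1.01 for SES against BMS, but its further tested probe set by -0.88. The count was 4 with array weights (SLC1A2, SLC2A5, SLC38A1 and SLC9A3R2), 2 with only the arrays of the groups compared or without the pig of ZES 1 and ZES 2, and 3 without the pig of BMS 1 and BMS 2. Leaving out 1 array at a time gave 0 to 2. Over all 16799 probe sets 114 passed in the main fit, 19 without a variance trend and 0 with either covariate. The artery term gave 7, an adjusted p under 0.01 gave 8, array weights 673 and only the groups compared 178. Without the pig of ZES 1 and ZES 2 there were 360, and without 1 array 0 to 415. The count thus moved over the whole array too. The F test count was 0, and became 4 with array weights, where the count over all probe sets went from 58 to 625. It was 1 without the pig of BMS 1 and BMS 2, 2 without the pig of ZES 1 and ZES 2, and 0 to 1 without 1 array. It was also 1 without BMS 1 and ZES 2, the arrays of high 28S ribosomal RNA signal, an alternative also chosen after seeing the data. For ZES against BMS and ZES against SES the count was 0 under all 34 alternatives. Of 102 differences of 34 named genes, 58 kept their sign under every alternative, and the sign changes were all in differences that passed in neither setting. No paired analysis was possible because each pig carried 1 stent type and the array numbers only name segments; the artery, which stent types do share, is the term given above.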
